A study of Mus musculus with 6 samples.

Results

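Cytosolic ribosomal protein genes encode the proteins that are assembled with ribosomal RNA into the large (60S) and small (40S) subunits of the ribosome outside mitochondria. Members were taken by symbol: every gene named Rpl or Rps followed by a digit, together with Rplp0, Rplp1, Rplp2, Rpsa and Fau. Symbols of pseudogenes carrying "-ps", the S6 kinases (Rps6k genes) and Rps19bp1 were left out. This gave 94 of the 55367 symbols in the table, 55 in the large subunit set (Rpl and Rplp) and 39 in the small subunit set (Rps, Rpsa and Fau). Of the 94, 78 were canonical ribosomal proteins (46 large, 32 small), 7 were paralogs with a coding sequence of their own and 9 were copies such as retrogenes, which are reverse-transcribed copies of a messenger RNA placed back into the genome.

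The RNA came from cells of the mouse hippocampal dentate gyrus sorted for the red protein tdTomato, which the labels call neurons. All mice were TRAP2;Ai9, also written Fos-iCreERT2; Rosa26-LSL-tdTomato: a drug-inducible Cre recombinase made from the activity gene Fos switches on tdTomato, so the marked cells are those with Fos activity while the inducing drug is present, of whatever type. All had been through learned helplessness (LH+), in which animals exposed to inescapable stress later fail to escape, and the sorted cells were those marked in that procedure. The LH+ NR group did not run, and the LH+ Run group had 28 days of voluntary running. Each group has 3 full-length Smart-seq2 libraries, called NR1, NR2, NR3, Run1, Run2 and Run3 here. The labels give 1 batch, and they do not give the age or sex of the mice or how many mice and cells stand behind a library, so the p-values reflect the spread among libraries, part or all of which can be technical.

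Each ribosome holds a single copy of nearly every ribosomal protein, with the stalk proteins as the known exception, and cells make these proteins in matched amounts. Their messenger RNAs are short, abundant in almost every cell and mostly begin with a run of pyrimidines, the 5′ terminal oligopyrimidine (TOP) motif, through which mTOR signalling controls their translation. In neurons, phosphorylation of ribosomal protein S6 is widely used as a sign of recent activity, and ribosomes also work locally in dendrites and axons.

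Values are FPKM, fragment numbers divided by transcript length and library size, which allow levels to be compared between genes of different length. FPKM do not carry the read totals, and low values did not fall on whole multiples of a read, so the depth is unknown. The summed FPKM of all symbols lay between 473786 and 492021 per library. The neuron label was set against marker genes fixed as lists: not 1 of the 10 markers of granule neurons had FPKM 1 or more in every library, and C1ql3, Trpc6 and Lct were listed at 0 in all 6. Of 10 pan-neuronal markers 3 had FPKM 1 or more in every library, none was at 0 in all, and their summed FPKM lay between 369 and 974. Of 12 astrocyte markers, 10 had FPKM 1 or more in every library, none was at 0 in all, and their summed FPKM lay between 2909 and 5843. RNA of astrocyte marker genes was thus present in libraries labelled as neurons. In such material fewer cells of a type and less RNA per cell cannot be told apart.

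The sequences at the starts of the genes show what many members share. The following stretches run from 30 bases before to 25 bases after the RefSeq start of transcription (GRCm38.p6), 5′ to 3′ on the gene's strand, with the longest run of pyrimidines (C or T) in capitals. They are shown because they include the member with the highest level (Rps27), the protein used as an activity sign (Rps6), long runs in both subunits (Rpl35, Rpl15, Fau) and a member with a short run (Rps2). Their coordinates are chr3:90213624-90213678 for Rps27, chr4:86857343-86857397 for Rps6, chr2:39005107-39005161 for Rpl35 and chr14:18270962-18271016 for Rpl15, all on the minus strand, and chr19:6057917-6057971 for Fau and chr17:24720033-24720087 for Rps2, both on the plus strand.
Rps27: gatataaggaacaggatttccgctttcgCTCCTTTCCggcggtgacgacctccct
Rps6: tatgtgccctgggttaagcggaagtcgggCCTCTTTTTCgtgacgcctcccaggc
Rpl35: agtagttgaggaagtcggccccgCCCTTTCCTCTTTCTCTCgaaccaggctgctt
Rpl15: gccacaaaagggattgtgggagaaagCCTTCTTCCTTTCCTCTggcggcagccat
Fau: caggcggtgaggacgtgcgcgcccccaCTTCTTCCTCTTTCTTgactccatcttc
Rps2: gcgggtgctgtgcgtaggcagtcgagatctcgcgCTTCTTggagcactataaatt

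A run of at least 8 pyrimidines within 30 bases of a start was present in 33 of the 58 canonical members found in the RefSeq table (56.9%), against 25.8% of 27025 genes in the table. The share was 61.8% of 34 large subunit and 50% of 24 small subunit genes. On the opposite strand, that is as a run of at least 8 purines, 13.8% of the canonical members and 28.7% of all genes had one. The run was 9 bases long in Rps27, 10 in Rps6, 18 in Rpl35, 17 in Rpl15, 16 in Fau and 6 in Rps2. The 33 members with a run had a median level of 279.8 FPKM and the other 25 of 240.2 FPKM. A match describes the letters in these windows only.

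Levels of the canonical members spread 52.4-fold, from a mean over the 6 libraries of 21.4 FPKM in Rps20 to 1122 FPKM in Rps27. Of the 78, 72 had a mean between 100 and 1000 FPKM. The median level was 252 FPKM in the large and 337 FPKM in the small subunit. Every canonical member reached FPKM 1 in all 6 libraries. Within a library the SD over canonical members of log2(FPKM + 1) lay between 1.01 and 1.45, so the members were not at equal FPKM in any library. The plot of canonical members by library shows this spread.

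**Figure D1:**
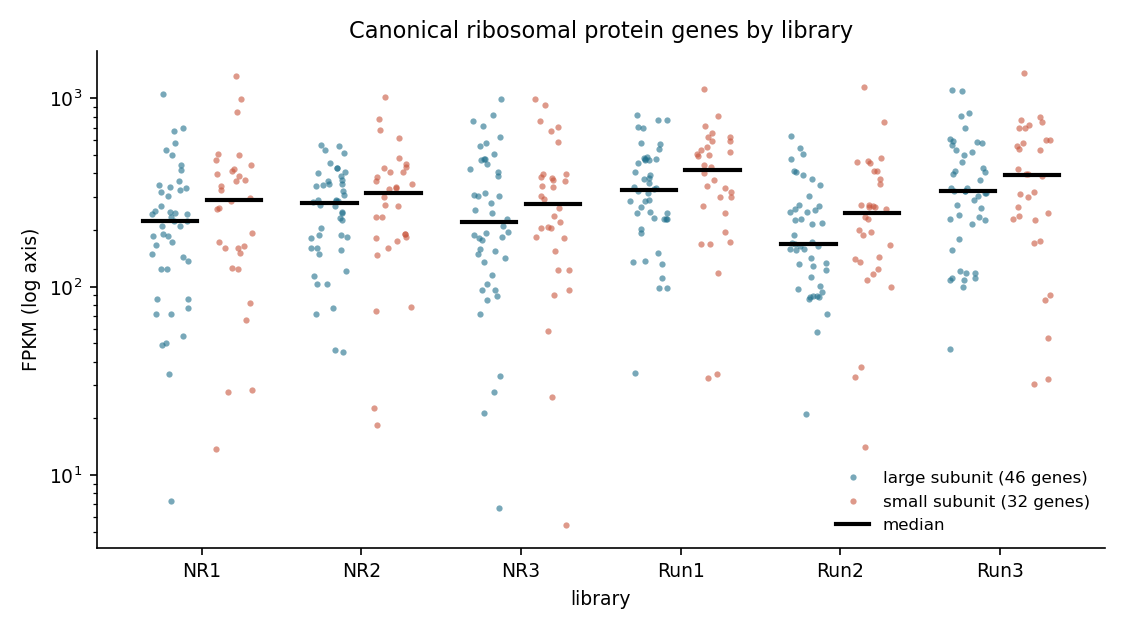
FPKM (log axis) of 46 large and 32 small subunit canonical genes in each library, 1 point per gene, with black bars at the medians. The small subunit median lies above the large subunit median in all 6 libraries, and both medians have their lowest value in Run2 (169 and 246 FPKM).

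In the small subunit the highest level was that of Rps27, a zinc-binding protein of the 40S subunit, at 1314, 1022 and 757 FPKM in NR1 to NR3 and 1123, 1156 and 1359 in Run1 to Run3. Its group ranges overlapped. Rps14, a protein of the 40S platform whose human counterpart is lost in the 5q deletion of myelodysplasia, had 989, 679 and 924 FPKM without running and 592, 484 and 767 with running. Rps29, another zinc-binding 40S protein, was among the steadiest members, with 847, 774 and 706 FPKM without running and 518, 754 and 798 with running. Rps19, the gene most often mutated in Diamond-Blackfan anaemia, a failure of red cell production, had 989 FPKM in NR3 and 809 in Run1 but 364 to 441 in the other 4 libraries. Its high libraries thus came from both groups. Rps18 ranged from 272 FPKM in Run2 to 698 in Run3.

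In the large subunit the highest level was that of Rpl13, with 1062, 515 and 995 FPKM without running and 768, 508 and 1109 with running. Rpl41 encodes the smallest ribosomal protein and stood at 675, 533 and 626 FPKM without running and 770.1, 545 and 1090.3 with running. Rplp1, an acidic protein of the stalk that recruits elongation factors, had 699, 427 and 813 FPKM without running and 709, 630.5 and 700.1 with running. For all 3 genes the ranges of the groups overlapped. Rpl32 followed with a mean of 534 FPKM.

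At the low end, Rps20 had 27.6, 18.5 and 5.42 FPKM without running and 32.6, 14.1 and 30.4 with running. Rps15a had 13.7, 22.8 and 25.9 FPKM without running and 34.5, 33.2 and 32.5 with running. In GENCODE M21 the annotated coding transcript of Rps20 is 3706 bases long, and those of Rps15a run from 250 to 5179 bases, where the median of the longest coding transcript over canonical members was 926 bases. FPKM divides by transcript length, and the sources used here do not name the transcript lengths behind the deposited values. Across the 78 canonical members, which are not independent replicates, the mean level had a Spearman rho of -0.32 with the longest coding transcript, -0.21 with the shortest and 0.00 with the coding length. Rpl12, at the base of the stalk, averaged 39.4 FPKM and Rpl22, an RNA-binding protein, 58.2 FPKM.

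Members also differed in how steady they were. Rpl38, whose loss in mice alters the patterning of the skeleton, lay between 225 and 321 FPKM and Rpl14 between 189 and 278, with SDs over 6 libraries of 0.20 and 0.21 on the log2(FPKM + 1) scale. At the other extreme among canonical members were Rpl31, between 21.3 (NR3) and 428 FPKM (Run3), and Rpl9, between 50.5 (NR1) and 576 FPKM (Run1), with SDs of 1.45 and 1.38. In Rpl31 and in Rpl9 the lowest library was an NR library and the highest a Run library, and the ranges of the groups overlapped.

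Among members with known roles, the 5S ribonucleoprotein pair Rpl5 and Rpl11, which carry 5S RNA into the large subunit and can bind Mdm2, differed in level. Rpl5 was at 72, 71.6 and 72.1 FPKM without running and 136, 71.6 and 119 with running, and Rpl11 at 211, 322 and 210.2 without running and 249, 159 and 396 with running. Rpl5 was thus nearly level over 4 libraries and higher in Run1 and Run3. Rpl4 and Rpl39 help line the tunnel through which the new protein leaves. Rpl4 had 223, 559 and 424 FPKM without running and 472, 228 and 835 with running, and Rpl39 had 144, 103 and 33.5 without running and 202, 57.8 and 109 with running. Rpl10, which joins the large subunit late in its maturation, had 498, 403 and 95.6 FPKM without running and 579.6, 392 and 408 with running. For Rpl10 and Rpl39 the library NR3 was the lowest of the 6, and Rpl13a, in contrast, had its highest value there, 715 FPKM against 249 to 518 in the other 5 libraries.

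In the small subunit, Rps6, the target of S6 kinase, had 504, 426 and 239 FPKM without running and 594, 109 and 320.5 with running. Its lowest and highest values both fell in the Run group. Rps27a and Fau are made as fusions with ubiquitin or a ubiquitin-like protein. Rps27a had 420.2, 431 and 205 FPKM without running and 443, 265 and 599 with running, and Fau had 411, 451 and 219.9 without running and 404, 265 and 749 with running. These 2 members had their lowest value in NR3 and their highest in Run3. Rpsa, also known as a laminin receptor, had 28.3 FPKM in NR1 and 90.5 to 207 in the other 5 libraries. The third stalk gene, Rplp2, stood at 248, 161 and 143 FPKM without running and 228, 157 and 111 with running, below Rplp1 in all 6 libraries.

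The summed FPKM of both sets was 23291, 23735 and 24771 in NR1 to NR3, a mean of 23932 ± 759.6 (SD, n = 3). In Run1 to Run3 it was 30738, 19619 and 31639, a mean of 27332 ± 6695 (SD, n = 3). Run1 and Run3 lay above every NR library and Run2 below every NR library, so the groups overlapped, and the Run mean was 1.14 times the NR mean with Run2 and 1.30 times without it. The sum made up 4.78%, 4.96% and 5.23% of all FPKM without running and 6.46%, 4.1% and 6.43% with running. The large subunit set gave 12578, 13006 and 13928 FPKM without running and 17006, 10298 and 17696 with running, and the small subunit set 10713, 10729 and 10843 without running and 13731, 9322 and 13943 with running. Both sets thus had the same 2 high libraries and the same low library. The canonical members gave 97.3% to 98.1% of the sum in each library, and the 10 highest members 23.8% to 32%.

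The summed FPKM of the 12 astrocyte markers was 5535, 2909 and 4449 without running and 3082, 5843 and 3003 with running. The highest values were in Run2 and NR1, the libraries with the lowest sums of ribosomal protein genes in their groups and overall. Aldoc (2655 FPKM in NR1 and 2579.8 in Run2) and Gfap (987 and 1259.9) made up most of these 2 astrocyte sums. Slc1a2, Slc1a3, Gja1 and Gjb6 were also highest in Run2. Aldh1l1 was lowest there (22.8 FPKM), and S100b had 0 FPKM in NR1 and 14.7 in Run2. NR2, whose ribosomal protein sum was close to that of NR1, had the lowest astrocyte marker sum of the 6. Over the 10 immature granule neuron markers the sum was 204, 764 and 620.2 FPKM without running and 1072, 556 and 1106 with running. Run1 and Run3 were highest. Stmn1 (663 and 711 FPKM in Run1 and Run3) and Tubb3 (253 and 227) made up most of these 2 sums. Sox11 and Neurod1 had their highest values in NR2 (49.9 and 113 FPKM). Of the 9 markers tested, 6 had a positive and 3 a negative difference, Run minus NR. Of the 10, 3 had FPKM 1 or more in every library and none was at 0 in all. The 10 microglia markers summed to 927 FPKM in Run2 and 55 to 572 in the others. Other lists had other orders, given here for NR1 to NR3 and then Run1 to Run3. Pan-neuronal markers summed to 369, 706 and 782, then 974, 622 and 399.8 FPKM. Granule neuron markers gave 40.5, 205 and 34.2, then 292, 108 and 52.9. Endothelial markers gave 966, 2405 and 894, then 848, 1117 and 1727. Mural cell markers gave 3210.3, 1089 and 919, then 985, 479 and 1523. Oligodendrocyte markers gave 257, 1477 and 1545, then 183, 622 and 998. The part of these cell types in the ribosomal protein levels was not tested. In Run2, 23 of the 78 canonical members (29.5%) had their lowest value of the 6 libraries, and 2 their highest. Of 617 other genes with a mean of at least 100 FPKM, 20.4% had their lowest value in Run2. Run1 and Run3 held the highest value of 27 canonical members each (34.6%), against 14.7% and 22.2% of those other genes.

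**Figure D2:**
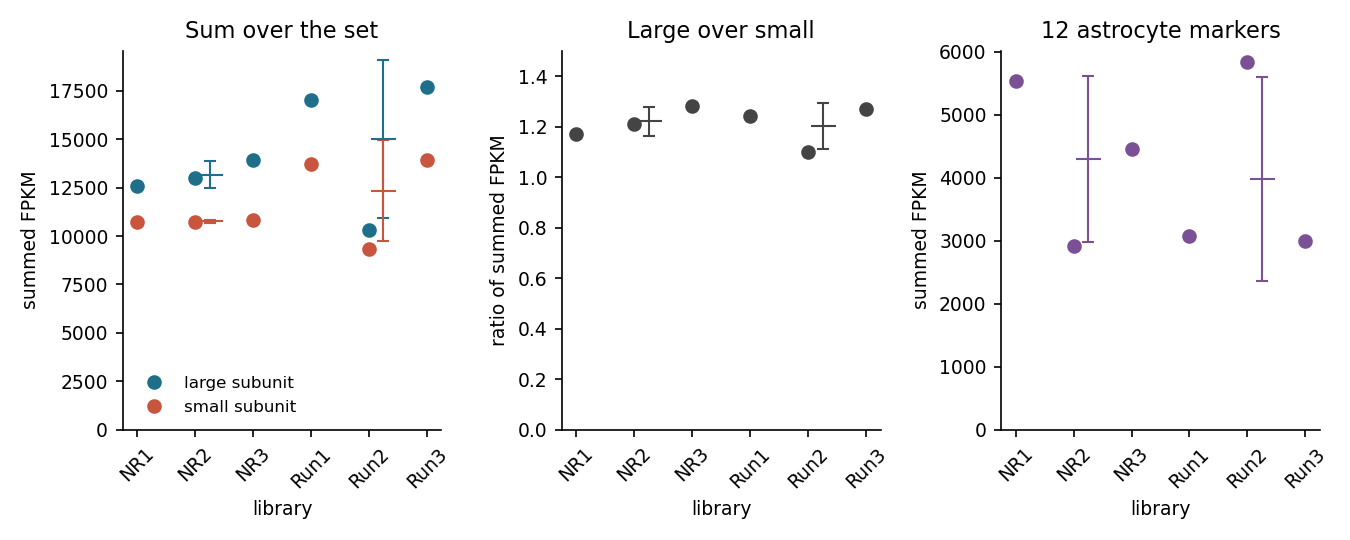
Summed FPKM of the large and small subunit sets, their ratio, and the summed FPKM of 12 astrocyte markers, by library, with group means ± SD (n = 3) beside the points. Run2 has the lowest sums of both sets (10298 and 9322) and the highest astrocyte marker sum (5843), while the ratio stays between 1.1 and 1.28. Aldoc and Gfap make up most of that marker sum.

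The large and small subunit sets kept nearly the same proportion in all libraries. The ratio of their summed FPKM was 1.17, 1.21 and 1.28 without running and 1.24, 1.1 and 1.27 with running, with means of 1.22 ± 0.0561 and 1.2 ± 0.0874 (SD, n = 3 each). The ranges overlapped, and the difference of -0.02 was smaller than either SD. Leaving out NR3 or Run2 turned its sign (0.01 and 0.03). The sums favoured the large subunit, which has more genes. The median canonical member favoured the small subunit, with a large to small ratio of medians between 0.688 and 0.88 in the 6 libraries.

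The comparison of Run with NR asked whether the ribosomal protein genes of the marked cells differed after running. With limma on log2(FPKM + 1), adjusted by Benjamini-Hochberg over all 6155 genes tested, no gene passed an adjusted p of 0.05 (0% called), and 304 had an unadjusted p under 0.05, 151 higher and 153 lower in Run (2.45% and 2.49%). Of the 94 members, 87 were tested, having FPKM of at least 1 in at least 3 libraries. None passed, and 3 had an unadjusted p under 0.05 by limma (Rps2, Rps24 and Rps3), all of the small subunit and all higher in Run. Without Run2 that number was 8, all higher, without Run3 it was 0, without NR1 or NR3 it was 1 higher gene each, without Run1 it was 1 lower gene (Rps7), and without NR2 it was 2 higher genes. Over all 6155 genes the same fits gave 364 without Run2, 323 without Run3, 318 without NR1, 302 without NR3, 352 without Run1 and 365 without NR2. A positive difference, Run minus NR, was found for 60 of the 87 (69%), 35 of 51 large and 25 of 36 small subunit members, against 48.9% of all tested genes. The median difference on the log2(FPKM + 1) scale was 0.25 in the large set, 0.31 in the small set and -0.03 over all tested genes.

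The median over all tested members was 0.26. It was 0.54 without Run2 and 0.11 without Run3, and it lay between 0.23 and 0.26 when libraries were scaled to a common total, scaled without mitochondrial and ribosomal RNA genes, or quantile normalized, with 58 to 60 positive differences. Scaling each library to the same summed FPKM of the members, an alternative chosen after seeing the data, makes the total equal by construction and left 50 of the 87 differences positive (57.5%). Among the 76 members with a mean of at least 100 FPKM, 64.5% of differences were positive with a median of 0.24. Among the 617 other genes with a mean of at least 100 FPKM, 49.6% were positive with a median of -0.01. Both sets had this floor, but their levels above it were not matched. The spread within groups was smaller in the members, with a median residual SD of 0.569 against 0.796 on the log2 scale.

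**Figure D3:**
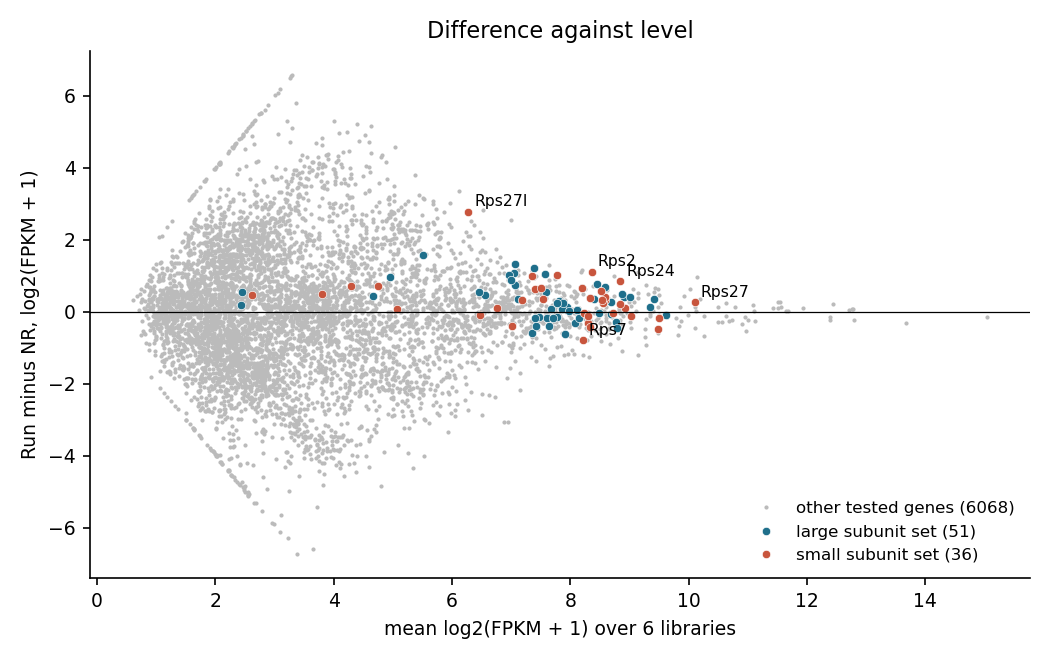
Difference Run minus NR against mean level, both on the log2(FPKM + 1) scale, for 6068 other tested genes (grey) and the 51 large and 36 small subunit members tested. Members sit mostly at high levels, where the scatter is narrow, and 60 of 87 lie above 0; none passed the adjusted threshold.

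Rps2, a 40S protein near the entry of the messenger RNA channel (chromosome 17, 24718116 to 24721929), had 295, 183 and 205 FPKM without running and 531, 352 and 602 with running. Every Run library was above every NR library, and the means were 228 ± 59.4 and 495 ± 129 FPKM (SD, n = 3 each). The log2 difference was 1.11 ± 0.39 (SE; limma unadjusted p = 0.0255, adjusted p = 0.807). Rps2 shared coding stretches of 50 bases with 71 other annotated genes, so its value depends on how such reads were assigned.

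Rps24, a further Diamond-Blackfan anaemia gene (chromosome 14, 24487125 to 24496959), had 325, 339 and 366 FPKM without running and 711, 467 and 693 with running. The NR libraries were close together and all 3 Run libraries lay above them, with a log2 difference of 0.83 ± 0.31 (SE; limma unadjusted p = 0.0331, adjusted p = 0.905). Of the coding stretches of 50 bases in Rps24, 78.3% occurred in other annotated genes, so its value also depends on how reads were assigned. Rps3, which lines the entry of the messenger RNA channel and also takes part in DNA repair (chromosome 7, 99477896 to 99483738), had 159.9, 181 and 123 FPKM without running and 342, 272 and 311 with running. Again the groups did not overlap, and the difference was 1.00 ± 0.40 (SE; limma unadjusted p = 0.0391, adjusted p = 0.956). Only 8.09% of its coding stretches of 50 bases occurred in another gene.

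Run lay above NR without overlap in 7 of the 87 tested members, where 4.76% of all tested genes did, and below in 1, where 4.19% did. Besides Rps2, Rps24 and Rps3 these were Rplp0, Rpl29, Rpl37a and Rps15a. The log2 difference was 0.64 ± 0.38 (SE; limma unadjusted p = 0.132) in Rpl37a. In Rps15a, a member of low level, it was 0.71 ± 0.82 (SE; limma unadjusted p = 0.421). Rplp0, the protein that anchors the stalk and a common reference gene in quantitative PCR, had 270.1, 345 and 302 FPKM without running and 486, 412 and 578 with running, a log2 difference of 0.68 (limma unadjusted p = 0.0741, adjusted p = 0.978). Rpl29, which shared such coding stretches with 84 other genes, had 76.8, 159.9 and 183 FPKM without running and 228, 269.7 and 324 with running. Its difference of 1.05 ± 0.50 (SE) had an unadjusted p of 0.0745 by limma. Rpl36a, with 71.7, 189 and 96 FPKM without running and 379.9, 133 and 315 with running, had a difference of 1.20 but overlapping groups.

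The member below NR in all 3 Run libraries was Rps7, a 40S protein that can bind Mdm2 (chromosome 12, 28630854 to 28635953). It had 387, 407 and 377 FPKM without running and 298, 167 and 225 with running. The NR libraries differed little, and the log2 difference was -0.80 ± 0.37 (SE; limma unadjusted p = 0.0709, adjusted p = 0.978). Of the coding stretches of 50 bases in Rps7, 95.3% occurred in other annotated genes, so its value also depends on how reads were assigned. The next smallest p-values among lower members belonged to Rps14, at -0.50 (limma unadjusted p = 0.141), and Rpl15, at -0.61 (limma unadjusted p = 0.273), which had 305, 181 and 149 FPKM without running and 132, 97.1 and 179.6 with running.

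**Figure D4:**
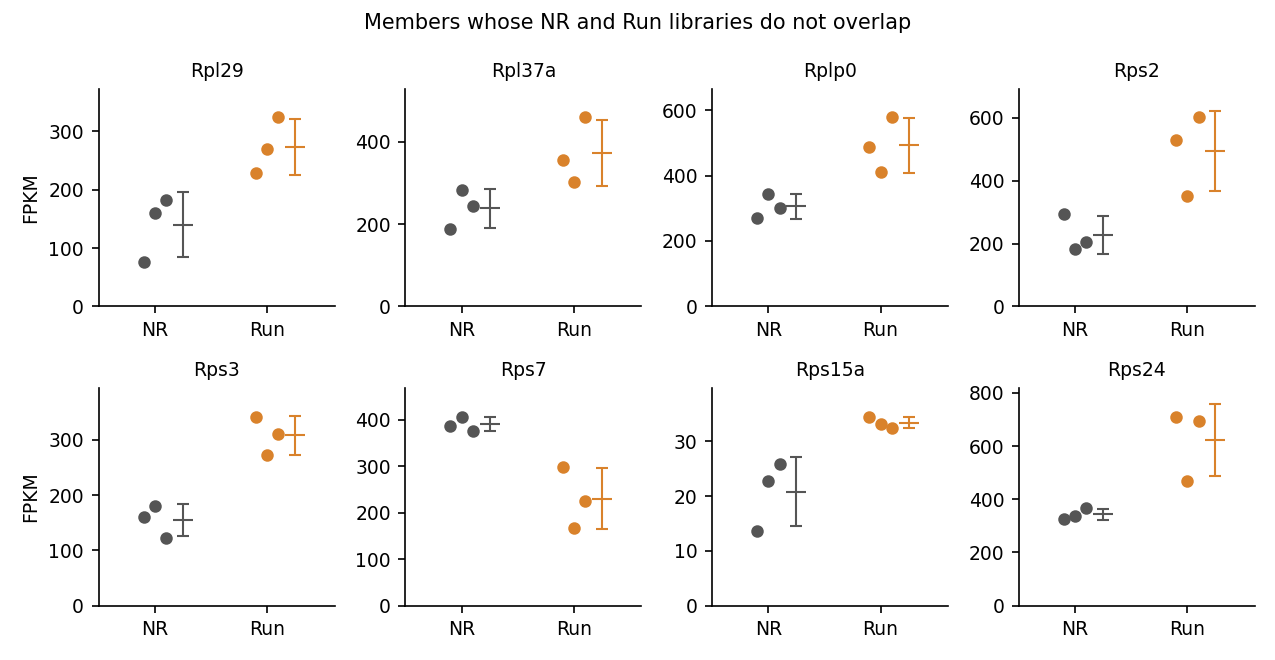
FPKM of the 8 members whose NR and Run libraries do not overlap, 1 point per library, with mean ± SD (n = 3) beside the points and each vertical axis from 0. Of the 8, 7 are higher in Run and Rps7 is lower; none passed the adjusted threshold.

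As shares of the summed FPKM of all members, which removes the low level of Run2, these genes looked as follows, bearing in mind that they were chosen for their separation in FPKM. Rps24 took 1.4%, 1.43% and 1.48% without running and 2.31%, 2.38% and 2.19% with running. Rps2 took 1.27%, 0.772% and 0.828% without running and 1.73%, 1.8% and 1.9% with running, and Rps7 1.66%, 1.72% and 1.52% without running and 0.969%, 0.853% and 0.712% with running. In each of these 3 genes Run2 stood with the other Run libraries, as it already did in the FPKM by which they were chosen. The shares of Rplp0, Rpl29 and Rps3 also did not overlap between groups, whereas those of Rpl37a and Rps15a did.

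Copies and paralogs showed how far values of single members can be told apart. The following stretches are the first 75 coding bases in GENCODE M21 of Rps27, of its retrocopy Rps27rt and of its paralog Rps27l, with bases that differ from Rps27 in capitals. They are shown because the copy cannot be separated from its parent by sequence here and the paralog can.
Rps27: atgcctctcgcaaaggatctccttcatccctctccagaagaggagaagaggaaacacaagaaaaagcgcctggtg
Rps27rt: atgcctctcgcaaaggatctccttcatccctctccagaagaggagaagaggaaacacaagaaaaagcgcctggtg
Rps27l: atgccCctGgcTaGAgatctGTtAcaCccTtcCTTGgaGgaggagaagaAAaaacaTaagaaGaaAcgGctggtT

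Rps27rt (chromosome 9, 114982366 to 114982739) was identical to Rps27 over all 252 coding bases, and the first 38 bases of its transcript equalled bases 2 to 39 of the Rps27 transcript. Its FPKM was 41.1, 32.2 and 23.8 without running and 30, 28.8 and 42.8 with running, which was 2.49% to 3.15% of Rps27 in every library. So the copy followed its parent from library to library. Rps27l, identical at 75.3% of 251 aligned bases, did not: it was listed at 0 in NR1 and stood at 154 and 167 FPKM in NR2 and NR3 and 186, 151 and 294 in Run. It passed the low-value filter through 5 libraries, and its log2 difference of 2.78 includes the 0 in NR1.

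Of the other copies, 5 had a measurable share of their parent in every library. Rps3a2 was at 3.25% to 4.36% and Rps3a3 at 1.4% to 1.76% of Rps3a1, which binds near the exit of the messenger RNA channel. Rpl6l was at 1.41% to 2.22% of Rpl6, Rpl32l at 0.702% to 1.23% of Rpl32, and Rpl37rt at 9.37% to 15.7% of Rpl37. Their coding identity to the parent was 97.2% (Rpl32l) to 99.7% (Rpl37rt). Rps4l stood at 0 to 11.6% of Rps4x and Rps23rg1 at no more than 0.0455% of Rps23. Rps12l1 was listed at 0 although all its coding stretches of 50 bases occur in Rps12. None of these followed its parent. Rps4l, however, was identical to Rps4x at only 80% of 786 aligned bases. Rps23rg1 was absent from the annotation, so its likeness to Rps23 was not measured. Ratios were also taken for 19 processed pseudogenes outside the rule that carry at least 90% of a parent's coding stretches of 50 bases and had a mean of at least 10 FPKM. Their FPKM relative to the parent varied between libraries by a median of 1.32-fold (range 1.11 to 3.78). The parent's own FPKM varied by a median of 3.11-fold over the same 19 pairs. These pairs have 15 parents, some of which, such as Rpl15, count more than once in that median. Rps6-ps4 stood at 20.8% to 24.9% of Rps6 while Rps6 varied 5.46-fold, whereas the share of Gm11518 in Rpl27 varied 3.78-fold, as much as Rpl27 itself (3.74-fold). Where the sequence is identical, which locus the reads came from cannot be told apart, and the sources used here do not say how the authors assigned reads that fit several loci. A median of 90.3% of a canonical member's coding stretches of 50 bases occurred in at least 1 other annotated gene, and for 28 members all did.

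The paralogs Rpl22l1 and Rpl36al have diverged enough for reads to be separated from their partner, sharing no coding stretch of 50 bases with it. They are not free of other matches. Of their coding stretches of 50 bases, 84.2% in Rpl22l1 and 100% in Rpl36al occurred in other annotated genes. For Rpl22 it was 31% and for Rpl36a 100%. Coding bases 67 to 141 of Rpl22 and the aligned bases of Rpl22l1, and the first 75 coding bases of Rpl36a and Rpl36al, are given with differences from the first gene of each pair in capitals.
Rpl22: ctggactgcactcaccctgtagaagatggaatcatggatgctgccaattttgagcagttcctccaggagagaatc
Rpl22l1: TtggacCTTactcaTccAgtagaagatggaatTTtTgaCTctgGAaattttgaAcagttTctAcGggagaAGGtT
Rpl36a: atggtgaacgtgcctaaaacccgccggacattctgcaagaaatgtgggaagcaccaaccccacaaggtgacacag
Rpl36al: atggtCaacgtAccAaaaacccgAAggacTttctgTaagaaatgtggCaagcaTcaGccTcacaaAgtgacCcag

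Rpl22l1, the paralog that can take the place of Rpl22 in the large subunit, had 329, 299 and 123 FPKM without running and 265, 146 and 131 with running. Rpl22 itself had 48.8, 46.3 and 6.73 FPKM without running and 111, 89 and 46.9 with running. The paralog was above Rpl22 in all 6 libraries. As a percentage of Rpl22 it was 674, 646 and 1834 without running and 239, 164 and 279.8 with running, so the ratio was higher in every NR library, a comparison noticed in the values and not tested. By limma the log2 differences were -0.42 (unadjusted p = 0.485) for Rpl22l1 and 1.58 (unadjusted p = 0.153) for Rpl22. Rpl36al moved between 27% and 296% of Rpl36a with no such order, at 212, 51 and 74.3 FPKM without running and 286, 131 and 135 with running.

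**Figure D5:**
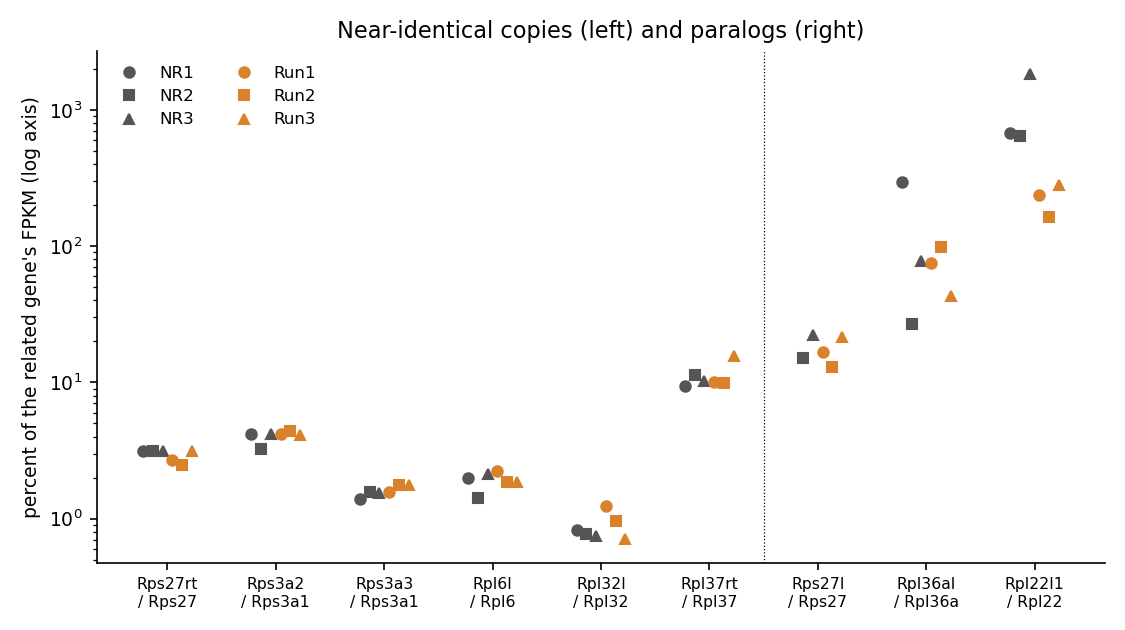
FPKM of 6 near-identical copies and 3 paralogs as a percentage of the related canonical gene (log axis), 1 point per library; the value of Rps27l in NR1 is 0 and is not drawn. Rps27rt lies at 2.49% to 3.15% of Rps27, Rpl37rt at 9.37% to 15.7% of Rpl37, and Rpl22l1 lies above 100% of Rpl22 in all 6 libraries.

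Of the 7 members not tested, 4 were listed at 0 in all libraries. These were Rpl3l, known from heart and skeletal muscle, Rpl10l and Rpl39l, known from testis, and Rps12l1. Rps23rg1 did not exceed 0.228 FPKM. Rpl7l1 was listed at 0 except for 8.21 FPKM in NR2 and 46.8 in Run3, and Rps4l except for 46.1 in NR3 and 28.1 in Run2.

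Other genes of the pathway did not pass either. Rack1, a signalling scaffold on the head of the small subunit, had 60.6, 7.2 and 93.8 FPKM without running and 267, 90.3 and 282 with running. Its groups overlapped, since Run2 lay below NR3, and its difference was 2.39 ± 1.06 (SE; limma unadjusted p = 0.0588, adjusted p = 0.978). Of 32 ribosome biogenesis factors 21 were tested, 10 with a positive and 11 with a negative difference (median -0.21), and none had an unadjusted p under 0.05. By limma, the smallest unadjusted p-values there were 0.0667 for Bccip (log2 difference -4.22), 0.124 for Aamp (0.94) and 0.132 for Nop58 (1.70). The difference of Bccip includes 0 FPKM in Run2 and 0.0312 in Run3. In Run1 it had 99.7 FPKM, within its NR range of 38.8 to 159. Nop58, a core protein of the particles that methylate ribosomal RNA, did not exceed 12.7 FPKM. Of 20 regulators of ribosomal protein messenger RNAs and S6, 8 were tested, 4 in each direction (median -0.02), again with none under 0.05. The smallest p-values by limma in that list were 0.225 for Cnbp, which binds TOP messenger RNAs, 0.3 for Rheb, the activator of mTOR, and 0.311 for Mlst8, an mTOR subunit.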

How the data were processed

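Polyadenylated RNA was measured in 6 Smart-seq2 libraries, 3 per group, taken from the titles. The authors deposited FPKM values in 1 table of 55367 symbols. The submitters' processing notes list StringTie 2.1.7, STAR 2.7.5c and Trimmomatic 0.39, with the build mm10, and the sources used here do not give the role of each tool or the annotation. Smart-seq2 has no molecular identifiers, so PCR copies are counted as fragments.

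The unscaled values were tested as log2(FPKM + 1) in the 6155 genes that reached FPKM 1 in 3 or more libraries. The 2-sided test was that of limma 3.58.1 (R 4.3.3), allowing the variance to depend on the mean, and p-values were adjusted over all 6155 genes by Benjamini-Hochberg, with a threshold of 0.05. Such log2 differences understate changes of low genes. Sums and ratios were not tested. Coordinates, coding sequences and lengths came from GENCODE M21 (mm10), which held 93 of 94 members (not Rps23rg1), and starts from RefSeq (GRCm38.p6). Python 3.11.15 with Biopython 1.88 aligned coding sequences. Members, lists and tests were chosen with earlier results of these data known. Named are, per subunit, the 5 highest and 5 lowest tested members, the 3 smallest p-values in each direction, every unadjusted p under 0.05, the 3 steadiest and 3 most variable members, members with known roles, paralog pairs, and the 3 smallest p-values of each pathway list. Some genes that this rule names are not reported here. Alternatives were another pseudocount, filter, scaling or trend setting, a replicate block, leaving out each library, and other ways to sum the members.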

Additional observations from a re-analysis of the deposited data

How the results depend on the processing

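No member passed an adjusted p of 0.05 by limma under any of the alternatives run, and the number of members with a positive difference stayed between 50 and 69 of those tested. The number of members with an unadjusted p under 0.05 by limma was 3. It was 1 with a pseudocount of 10, 1 with the filter of FPKM 1 in all 6 libraries, 0 without the trend, 1 with the replicate block, and 0 to 8 when each library was left out. Over all tested genes that number was 304, and it was 294 with the pseudocount of 10, 334 without the trend and 302 to 365 when each library was left out. With that filter 82 genes in all had an unadjusted p under 0.05, with 1751 genes tested. Deviations of same-numbered libraries from their group means had correlations of 0.00416 to 0.0211, all small but above those of differently numbered ones (-0.019 to 0.000502). Such deviations cancel out within a group, so a positive value for some pairs pushes others below it. The contrast alone therefore cannot show whether libraries were paired. The block left 251 genes at an unadjusted p under 0.05 by limma. The ratio of large to small subunit sums, 1.21 over all libraries, was 1.33 without the 3 highest members of each set and 0.79 for the median canonical member, and lay between 1.20 and 1.24 with each library left out. Its difference of -0.02 turned to 0.01 without NR3 and 0.03 without Run2 and lay between -0.05 and 0.03 with each library left out. The Run to NR ratio of the summed FPKM lay between 1.05 and 1.30 with each library left out. With members scaled to the same sum, chosen after seeing the data, 7 members lay above NR without overlap, the same number as without that scaling. Below NR without overlap lay 3 in place of 1. The shares over all tested genes were not taken with that scaling, so these counts have no reference. Depth is unknown, and 3 libraries a group limit what can pass.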
